A study of Mus musculus with 9 samples.

Results

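The early growth response (EGR) transcription factors Egr1, Egr2 and Egr3 and their corepressors Nab1 and Nab2 were followed in normal mouse blood stem and progenitor cells during leukemia. The members are all probe sets whose platform annotation names 1 of these 5 symbols alone. They number 9 of the 45037 probe sets in the deposited table and 5 of its 18193 genes. RNA came from flow-sorted CD45.1+LKS+ bone marrow cells, where LKS+ is the usual shorthand for lineage-negative, c-Kit+ and Sca-1+ cells. All mice were labelled C57BL/6 and aged 8 weeks. The 3 groups, with 3 arrays each, were control mice, leukemic mice at day 7 and leukemic mice at day 14. The controls carry no day. The agent that induced the leukemia, the origin of the CD45.1+ cells and whether animals were pooled are not given in the sources used here. The replicates are labelled biological without a statement that each came from its own animal. Each p-value therefore measures spread among these arrays alone, which may be partly technical. The comparisons address how residual normal stem and progenitor cells change as acute myeloid leukemia advances.

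EGR proteins are zinc finger transcription factors encoded by immediate-early genes. Their transcription is switched on within minutes by growth factor, antigen receptor and stress signals, largely through ERK kinases acting on serum response factor (SRF) and its partners, and for Egr2 and Egr3 also through calcineurin and NFAT. NAB1 and NAB2 bind EGR1, EGR2 and EGR3, recruit the NuRD chromatin remodelling complex and repress transcription at EGR sites, and Nab2 is itself known as an EGR-induced gene that closes a feedback loop. In blood, EGR1 is known for holding stem cells quiescent in their niche, and EGR2 and EGR3 for restraining the growth of activated lymphocytes.

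Promoter sequences, through which the family is thought to regulate itself, are shown first as background. Their part in the changes of the members was not tested. Promoter windows from RefSeq on mouse build GRCm38.p6 span 250 bases before to 50 bases after a start site. Of the 5 genes, 3 matched the table: Egr2 with 5 windows, Nab1 with 1 and Nab2 with 1. Egr1 and Egr3 had no entry. The Egr2 window lies at chr10:67537619-67537918 on the plus strand, the Nab1 window at chr1:52500399-52500698 on the minus strand and the Nab2 window at chr10:127666654-127666953 on the minus strand. Capitals mark matches, on either strand, to the EGR sites GCGTGGGCG and GCGGGGGCG, the cyclic AMP response element TGACGTCA and the CArG box bound by SRF.
Egr2: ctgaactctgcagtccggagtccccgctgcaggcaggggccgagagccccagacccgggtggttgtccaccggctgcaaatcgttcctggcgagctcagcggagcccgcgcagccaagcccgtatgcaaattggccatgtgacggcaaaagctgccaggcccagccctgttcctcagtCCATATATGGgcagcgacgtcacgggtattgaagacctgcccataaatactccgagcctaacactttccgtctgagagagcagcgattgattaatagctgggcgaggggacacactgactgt
Nab1: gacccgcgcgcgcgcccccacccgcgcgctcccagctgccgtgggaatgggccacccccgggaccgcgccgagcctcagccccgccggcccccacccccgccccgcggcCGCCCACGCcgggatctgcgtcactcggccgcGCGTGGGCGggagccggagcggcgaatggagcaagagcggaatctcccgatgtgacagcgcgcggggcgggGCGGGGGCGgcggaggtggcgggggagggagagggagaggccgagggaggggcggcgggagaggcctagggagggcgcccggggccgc
Nab2: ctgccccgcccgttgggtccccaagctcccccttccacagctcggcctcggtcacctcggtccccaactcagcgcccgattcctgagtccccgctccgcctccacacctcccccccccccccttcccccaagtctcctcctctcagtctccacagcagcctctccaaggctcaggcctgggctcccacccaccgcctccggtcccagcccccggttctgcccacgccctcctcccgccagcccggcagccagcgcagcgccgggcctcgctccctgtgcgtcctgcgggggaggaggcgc

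The Nab1 window held GCGTGGGCG in 2 places, at -109 on its own strand and at -141 on the opposite strand relative to the start site, and GCGGGGGCG once at -38. The 3 matches do not overlap. Among 32851 mouse windows of the same length, 0.612% held GCGTGGGCG at least once, 0.0213% held it 2 or more times and 2.91% held GCGGGGGCG. The Nab1 window was 81.7% G and C against a median of 52.7% over all windows, and 0.588% of windows were at least as rich. The printed Egr2 window held a CArG box at -72, a motif found in 1.63% of windows, and no match to the other 3 motifs. Of the other 4 Egr2 windows, 2 overlap the printed one and share this box, another held a CArG box of its own and the last held none. The Nab2 window held none of the 4 motifs, and TGACGTCA, present in 1.79% of all windows, was in none of the 7 windows of these genes. A match is a stretch of letters and not a measured binding site.

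Each value is the authors' normalized intensity of 1 probe set on a linear scale. Intensities of different probe sets cannot be set against each other. The array medians lay between 23.4 and 24.2. Day 14 arrays had a lower 75th percentile (115 to 119) than the control and day 7 arrays (127 to 130), so day 14 changes were also computed with the arrays scaled to each other. Correlations of log2 intensity were 0.991 to 0.997 within groups, 0.984 to 0.993 between control and day 7 arrays and 0.966 to 0.980 between control and day 14 arrays. A probe set was tested where it lay above the 40th percentile of its own array (14.1 to 15.2) in at least 3 arrays. The test was limma on log2 intensity with Benjamini-Hochberg adjustment over 27665 tested probe sets, and a call means an adjusted p below 0.05. Of the 9 member probe sets, 7 were tested. In sorted bulk RNA, more cells carrying a transcript and more of it per cell cannot be told apart.

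**Figure D1:**
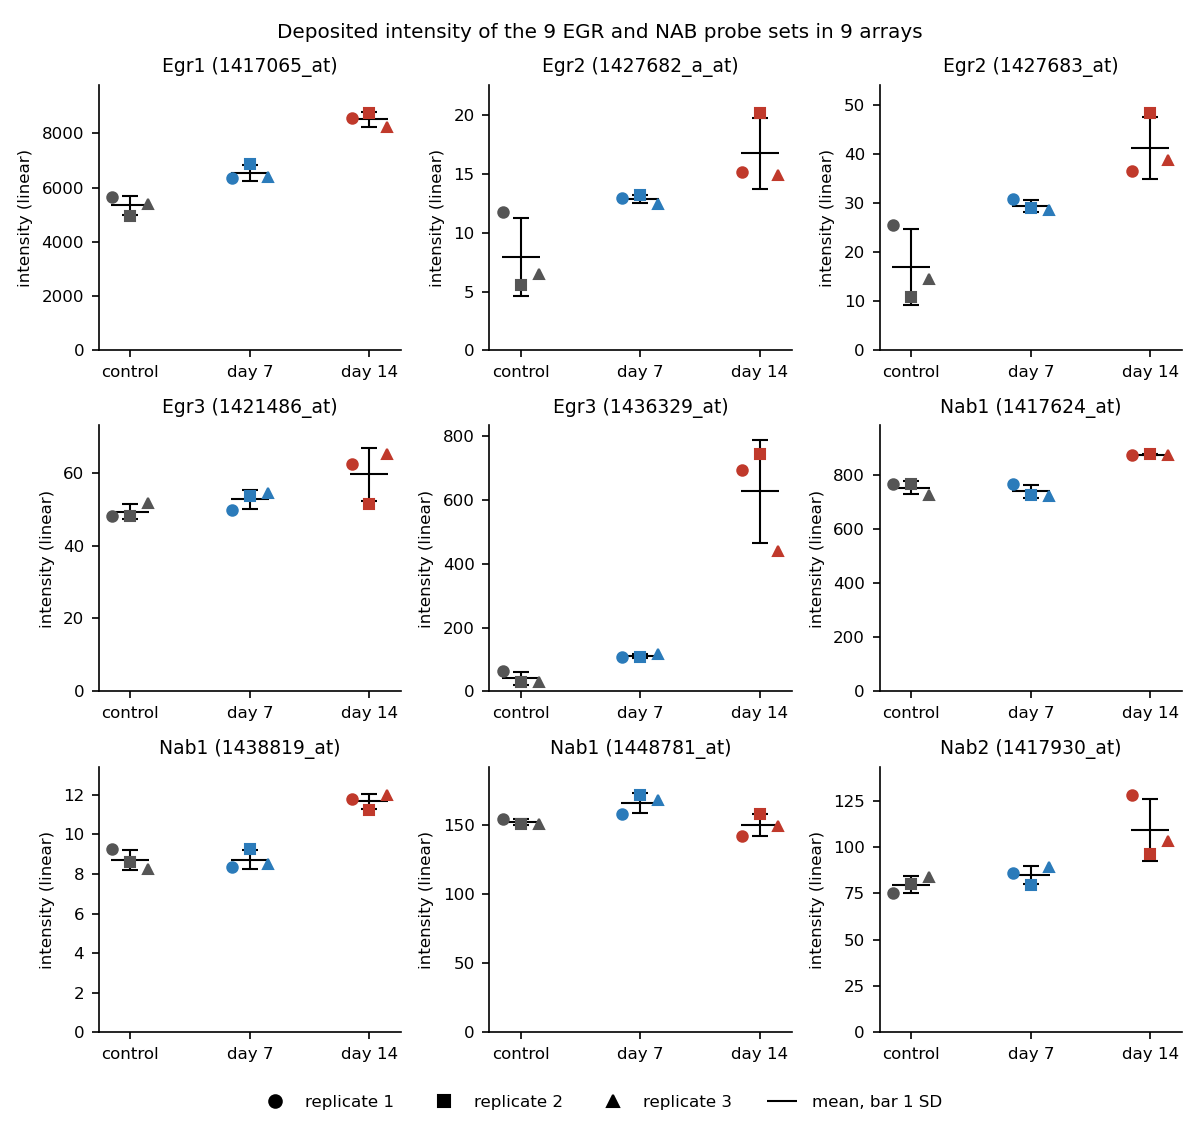
Deposited intensity on a linear axis starting at 0 for each of the 9 EGR and NAB probe sets, with 1 point per array, marker shape giving the replicate, and black bars giving the group mean and 1 SD (n = 3). Egr3 1436329_at ran from 28.7 to 63.3 in controls to 441 to 743 at day 14, while Egr3 1421486_at stayed between 48.1 and 65.1 in all 9 arrays.

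Egr1, the best known member in stem cells, was far above the filter level in every array and rose by day 14. Probe set 1417065_at read 5665, 4974 and 5411 in the control arrays. It read 6347, 6875 and 6385 at day 7 and 8588, 8754 and 8227 at day 14. The 3 groups did not overlap, and every day 14 array lay above every day 7 array. Control intensity averaged 5350 ± 349 (SD, n = 3). Egr1 was 1.59-fold higher at day 14 than in controls (log2 change 0.67, SE 0.07, limma adjusted p = 0.00012). It was also 1.30-fold higher at day 14 than at day 7 (log2 change 0.38, adjusted p = 0.0021). The day 7 difference from control, 1.22-fold (log2 0.29, SE 0.07), missed the threshold at a limma adjusted p of 0.058. That p ranged from 0.010 to 0.17 over 21 alternative settings, of which 5 called it.

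Egr2, which acts in myelin formation and lymphocyte restraint, was low in controls and higher at day 14. Probe set 1427683_at read 25.6, 10.8 and 14.5 in controls, 30.7, 28.9 and 28.5 at day 7 and 36.5, 48.3 and 38.8 at day 14. The groups did not overlap, control replicate 1 was the highest control by far, and 2 of the 3 control arrays passed the 40th percentile. At day 14 the level was 2.57-fold that of controls (log2 change 1.36, SE 0.25, limma adjusted p = 0.0021). It was called in all 20 alternative settings, where the log2 change ran from 0.59, with an offset of 32 added to the intensities in place of the floor, to 1.71 when control replicate 1 was dropped. The log2 differences of 0.89 at day 7 from control (adjusted p = 0.082) and 0.48 between the leukemic groups (adjusted p = 0.16) were not called by limma. Without control replicate 1 the same differences were 1.23 (adjusted p = 0.014) and 0.48 (adjusted p = 0.019), both called. The second Egr2 probe set, 1427682_a_at, read 11.8, 5.59 and 6.48 in controls, 12.9, 13.2 and 12.5 at day 7 and 15.2, 20.2 and 14.9 at day 14. It passed the 40th percentile in only 2 day 14 arrays and was not tested. Its groups ran in the same order as those of 1427683_at. With control and day 7 values raised to the 40th percentile, the day 14 level was 1.16-fold control and 1.17-fold day 7. Day 14 replicate 3, at 14.9, lay under that percentile itself, so these ratios are not lower bounds.

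Egr3, an inducer of lymphocyte anergy genes and a close relative of Egr2, gave the largest changes in the family. Probe set 1436329_at read 63.3, 29.8 and 28.7 in controls. It read 107.25, 107.25 and 117.7 at day 7 and 694, 743 and 441 at day 14. No value of one group reached another group, and the lowest day 14 array was well above the highest day 7 array. Group means were 40.6 ± 19.7, 111 ± 6.03 and 626 ± 162 (SD, n = 3 each). The level was 2.92-fold that of controls at day 7 (log2 change 1.55, SE 0.29, limma adjusted p = 0.025), the 10th largest rise of the 27665 probe sets tested. At day 14 it was 16.1-fold that of controls (log2 change 4.01, 95% interval 3.37 to 4.65, limma adjusted p = 1.9e-05), and 5.52-fold that of day 7 (log2 change 2.46, adjusted p = 0.00016). Both of these ranked the 4th largest rise. The day 14 changes were called in all 21 alternative settings, at log2 3.18 to 4.38 against control and 2.17 to 2.70 against day 7. The day 7 call was less firm: it was lost in 7 of 21 settings, 5 of which drop a single array. Dropping control replicate 2 or 3 gave adjusted p-values of 0.051 and 0.073, and dropping day 7 replicate 1, 2 or 3 gave 0.080, 0.069 and 0.091. Dropping control replicate 1 raised the change to 1.92 (limma adjusted p = 0.0068).

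The second Egr3 probe set, 1421486_at, did not follow. It read 48.1, 48.1 and 51.7 in controls, 49.8, 53.6 and 54.5 at day 7 and 62.2, 51.4 and 65.1 at day 14. The groups overlapped, since day 14 replicate 2 lay below the highest control. The log2 change was 0.09 at day 7 (limma adjusted p = 0.62) and 0.27 at day 14 against control (adjusted p = 0.041). The day 14 call was lost in 11 of 20 alternative settings, among them the dropping of any array other than control replicate 3 or day 14 replicate 2 (adjusted p = 0.051 to 0.13). Between day 14 and day 7 its difference of 0.17 was not called (limma adjusted p = 0.16), but was called when day 14 replicate 2 was dropped (0.28, adjusted p = 0.022) and at the same 75th percentile (0.30, adjusted p = 0.029).

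**Figure D2:**
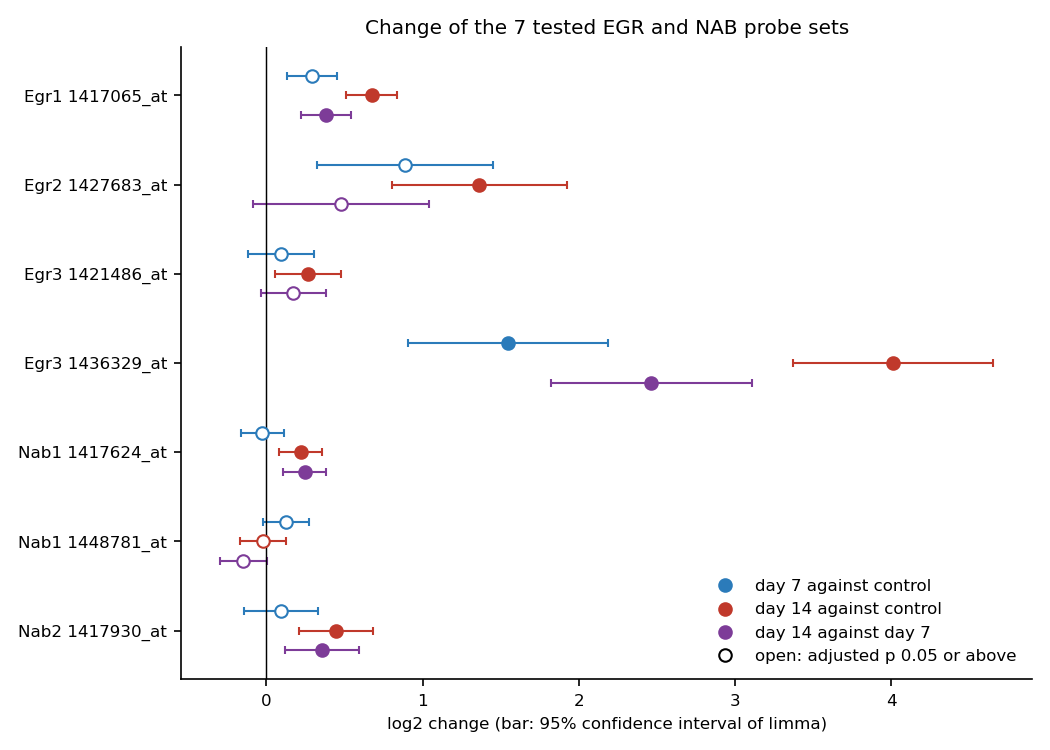
Log2 change of the 7 tested EGR and NAB probe sets in the 3 comparisons (x axis), with bars for the 95% confidence interval of limma and open points where the adjusted p was 0.05 or above. Egr3 1436329_at stands at 1.55, 4.01 and 2.46, while the other 6 probe sets lie between -0.15 and 1.36.

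The disagreement between Egr3 probe sets was wide, and the difference between probe sets of a gene was also tested itself. Within each array, the log2 intensity of the other probe set was subtracted from that of the gene's brightest one, and limma was fitted over 10609 such pairs from 6047 genes. For Egr3 the difference 1436329_at minus 1421486_at was 0.40, -0.69 and -0.85 in controls, 1.11, 1.0009 and 1.11 at day 7 and 3.48, 3.85 and 2.76 at day 14. It widened in steps that did not overlap. The widening from control to day 14 was 3.75 (limma adjusted p = 9.0e-05) and from day 7 to day 14 was 2.29 (adjusted p = 0.0014), each the largest of the 10609 pairs. From control to day 7 it was 1.45 (SE 0.33), the 2nd largest of all pairs but not called (adjusted p = 0.062), and it was called when control replicate 1 was dropped (1.84, adjusted p = 0.023). Among all pairs, 1.31% were called at day 7 against control, 23.6% at day 14 against control and 24.6% at day 14 against day 7. The annotation lists a RefSeq accession for 1421486_at and none for 1436329_at. The positions of the probes were not used here, and what sets these probe sets apart was not tested.

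**Figure D3:**
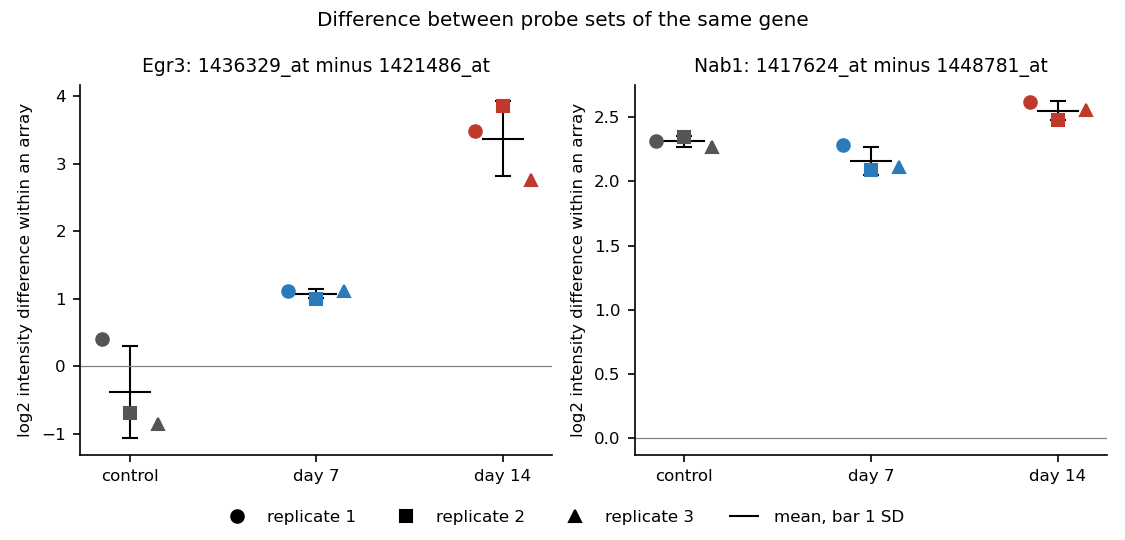
Within-array difference in log2 intensity between probe sets of Egr3 (left) and Nab1 (right) in each group, with 1 point per array and black bars for the mean and 1 SD (n = 3). The Egr3 difference climbed from between -0.85 and 0.40 in controls to between 2.76 and 3.85 at day 14, and the Nab1 difference stayed between 2.09 and 2.62 in all arrays.

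Nab1, the more broadly expressed corepressor, changed little. Probe set 1417624_at read 769, 767 and 726 in controls, 769, 728 and 725 at day 7 and 875, 880 and 877 at day 14. Control and day 7 arrays overlapped, and all 3 day 14 arrays lay above them. The day 14 level was 1.16-fold that of controls (log2 change 0.22, SE 0.06, limma adjusted p = 0.016) and 1.18-fold that of day 7 (log2 0.24, adjusted p = 0.0096). At day 7 the log2 difference from control was -0.03 (adjusted p = 0.86). With the arrays scaled to the same 75th percentile the day 14 change was 0.34, and with quantile normalization 0.24.

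A second Nab1 probe set did not show that rise. Probe set 1448781_at read 154, 151 and 151 in controls, 158, 172 and 168 at day 7 and 142, 158 and 149 at day 14. Day 7 was the highest group, and no comparison was called: the log2 differences were 0.13 at day 7 from control, -0.02 at day 14 from control and -0.15 between the leukemic groups (limma adjusted p = 0.32, 0.81 and 0.10). The sign of the day 14 value against control turned with both scalings, to 0.10 each, and again was not called. Within arrays, 1417624_at minus 1448781_at was 2.32, 2.35 and 2.27 in controls, 2.28, 2.09 and 2.11 at day 7 and 2.62, 2.48 and 2.56 at day 14. The difference grew by 0.39 from day 7 to day 14 (limma adjusted p = 0.0077), while its changes of -0.15 at day 7 (adjusted p = 0.36) and 0.24 at day 14 (adjusted p = 0.055) from control were not called. Probe set 1438819_at lay under the 40th percentile in all 9 arrays, at 8.25 to 9.26 in controls, 8.36 to 9.26 at day 7 and 11.2 to 12.0 at day 14, and was not tested.

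Nab2, the inducible corepressor, rose at day 14. Probe set 1417930_at read 75.01, 80.03 and 84.1 in controls, 86.0, 79.6 and 89.1 at day 7 and 128, 96.2 and 103 at day 14. Control and day 7 arrays overlapped, and each day 14 array lay above all of them. The day 14 level was 1.36-fold that of controls (log2 change 0.45, SE 0.11, limma adjusted p = 0.0076). It was 1.28-fold that of day 7 (log2 change 0.35, adjusted p = 0.022), a call lost when day 7 replicate 1 or 2 was dropped (adjusted p = 0.052 and 0.080) or day 14 replicate 1 (0.058). At day 7 the log2 difference from control was 0.09 (adjusted p = 0.68).

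Counted together at day 7 against control, 1 of the 7 tested member probe sets was called higher and none lower, where 1.9% of all tested probe sets were called higher and 1.49% lower. At an unadjusted p below 0.05 the limma count was 3. Shares of all probe sets or genes at that unadjusted level were not computed, here or for the lists below. At day 14 against control 6 of 7 were called higher and none lower, beside 17% higher and 27.5% lower among all tested. Between day 14 and day 7 it was 4 of 7 higher and none lower, beside 16.5% and 25.7%. The median log2 change of the 7 was 0.13, 0.45 and 0.35 in these comparisons, against 0.00, -0.04 and -0.02 over all tested probe sets. Member groups did not overlap, in the higher direction, for 4, 5 and 5 probe sets, where 14.3%, 21% and 22.6% of all tested probe sets did so. These counts take a probe set, not a gene, as the unit, and 4 of the 7 come from Egr3 and Nab1. The comparisons share their arrays and are not independent of each other.

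The day 14 share of calls that were higher depended on scaling over the whole array: 38.2% as deposited, 48.3% with quantile normalization and 61.6% at the same 75th percentile (day 14 against day 7: 39.2%, 49.1% and 64.1%). The last scaling moved the median change of all tested probe sets from -0.04 to 0.08 at day 14 against control and from -0.02 to 0.11 at day 14 against day 7. Every member call above kept its direction and its call with both scalings.

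Control replicate 1 stood 0.74 above the control mean in log2 for Egr3 1436329_at, 0.69 for Egr2 1427683_at and 0.63 for Egr2 1427682_a_at, but 0.08 for Egr1. The control SD of log2 intensity was 0.64 for Egr3 1436329_at and 0.63 for Egr2 1427683_at, larger than that of 99.7% of tested probe sets each, where the median SD was 0.11. At day 7 the same SDs were 0.08 and 0.06. Other immediate-early genes did not single out that array: of 21 such genes, control replicate 1 was the highest control for 10, control replicate 3 for 11 and control replicate 2 for none. Among all tested probe sets these arrays were highest for 29.0%, 37.3% and 38.1%. The median deviation of the 21 genes was 0.12, -0.24 and 0.10 in control replicates 1, 2 and 3.

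Most genes on a list of other immediate-early genes rose at day 14 as well. That list and those below were chosen with earlier results of these data known. Their counts are therefore descriptive and give no independent support. Of 21 other immediate-early genes, all tested with 1 probe set each, 18 were called higher and none lower at day 14 against control, 15 higher and none lower against day 7, and 3 higher and none lower at day 7 against control. With 1 probe set a gene, 16.6%, 15.7% and 1.81% of 12652 genes were called higher and 32.1%, 31.9% and 0.901% lower in the same comparisons. The list's median log2 change was 0.65, 0.52 and 0.20, against -0.06, -0.06 and 0.01 over all genes. The day 7 median was 0.07 when control replicate 2 was dropped. Maff, a small MAF factor, rose by 0.96 in log2 at day 7 and 2.47 at day 14. Fosl2, an AP-1 subunit, rose by 0.84 and 1.95, and Klf4, a Kruppel-like factor, by 2.13 at day 14. Fosl1, another AP-1 subunit, was called higher at day 7 (0.56), but all 3 control arrays lay under the 40th percentile, at 10.2 to 13.7, so the control level is only a bound. Against day 7, the largest rises at day 14 were Klf4 at 1.78, Fosb at 1.51 and Maff at 1.51. Fos itself gave -0.15 at day 14 (limma adjusted p = 0.15). The day 7 count of 3 fell to 2 when control replicate 2, any day 7 array, or day 14 replicate 1 or 2 was dropped, and to 1 when control replicate 3 was. Leaving out control replicate 2 called 1 gene lower at day 14. Maff was called at day 7 without any 1 array, Fosl2 was lost without control replicate 3 (adjusted p = 0.055), and Fosl1 was lost without any 1 array other than control replicate 1 or day 14 replicate 3 (0.055 to 0.14).

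Genes described in the literature as EGR targets were called in both directions at day 14, more often higher than lower. Of 35 listed genes 28 were tested, and 5 were called higher and none lower at day 7 against control. At day 14, 17 were higher and 6 lower against control, and 15 higher and 5 lower against day 7. Over all genes 1.81% were called higher and 0.901% lower at day 7. At day 14 the shares were 16.6% and 32.1% against control, and 15.7% and 31.9% against day 7. The list's median log2 change was 0.04 at day 7 and 0.38 at day 14 against control, and 0.28 against day 7. Over all genes the same medians were 0.01, -0.06 and -0.06. The list's day 7 median ran from 0.04 to 0.11 when single arrays were dropped. Nr4a3, an orphan nuclear receptor, averaged 36.6 ± 1.44 in controls, 115 ± 16.6 at day 7 and 408 ± 73.8 at day 14 (SD, n = 3 each). It rose by 1.65 in log2 at day 7 and 3.46 at day 14 against control, and by 1.81 against day 7. At day 7 Id3, an inhibitor of E proteins, rose by 1.02 and Cdkn1a, the cell cycle inhibitor p21, by 0.69. The other genes called at day 7, named after their values were seen, were the cytokine gene Tnf (0.61) and Zbtb16, which encodes PLZF (0.56). At day 14 against control Vegfa, an angiogenic growth factor, rose by 2.20 and Zbtb16 by 1.87. Gfi1, a stem cell and myeloid repressor, fell by 0.88 in log2, Tnfsf10, which encodes TRAIL, by 0.71 and the surface glycoprotein gene Thy1 by 0.55. Against day 7 Socs3, a cytokine signalling brake, rose by 1.65 and Vegfa by 1.47, while Thy1 fell by 1.30, Tnf by 1.03 and Gfi1 by 0.57.

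The day 7 target count fell from 5 to 2 when control replicate 3 or either of the day 7 replicates 1 and 2 was dropped, and to 1 when day 7 replicate 3 was dropped. Nr4a3 was called at day 7 in each of these fits. Id3 was lost when any array but control replicate 1 was dropped (limma adjusted p = 0.062 to 0.16), and Cdkn1a when day 7 replicate 1 or 3 was dropped (0.079 and 0.080). The 6 lower calls at day 14 became 3 without day 14 replicate 2 and 2 at the same 75th percentile, where Thy1 was no longer called (adjusted p = 0.068). Thy1 was also lost when control replicate 2, or day 14 replicate 1 or 2, was dropped (0.11, 0.090 and 0.11). Egr4, a relative that lacks the NAB-binding region, averaged 26.2 ± 3.76 in controls, 30.3 ± 1.95 at day 7 and 35.3 ± 2.70 at day 14 (SD, n = 3 each). Its log2 change was 0.44 at day 14 (limma adjusted p = 0.0092) and 0.22 at day 7 (adjusted p = 0.29) against control, and 0.22 between the leukemic groups (adjusted p = 0.13). Wt1, a zinc finger gene of related binding, was not above the 40th percentile in any array and was not tested.

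**Figure D4:**
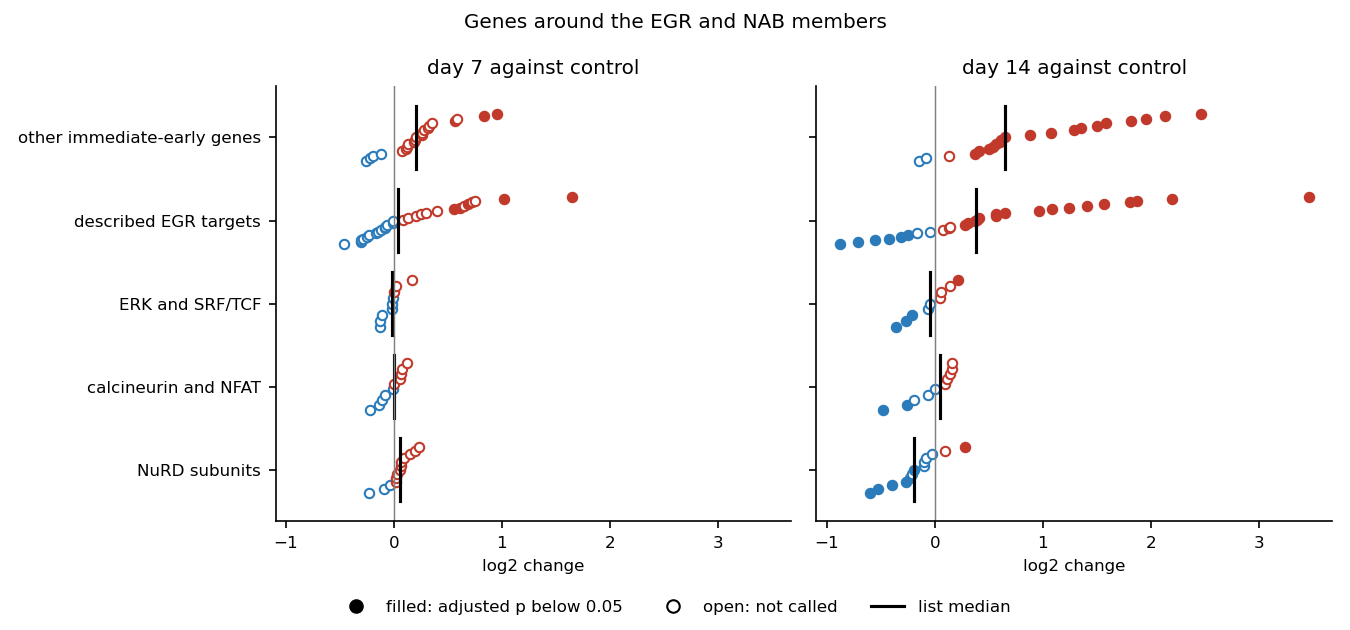
Log2 change of each tested gene (x axis) in 5 gene lists around the EGR and NAB members, at day 7 and at day 14 against control, with filled points for adjusted p below 0.05, red above 0, blue below 0, and black bars for list medians. The median of the other immediate-early genes lies at 0.20 at day 7 and 0.65 at day 14, and that of the described EGR targets at 0.04 and 0.38.

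The ERK kinases and SRF partners that switch EGR genes on were called in both directions at day 14. In the ERK cascade and SRF list, 9 of 15 genes had a probe set and all 9 were tested. At day 7 limma called none, with none at an unadjusted p below 0.05, and the smallest p-values belonged to the SRF partners Elk4 (log2 -0.13, adjusted p = 0.27) and Elk3 (-0.13, adjusted p = 0.31). At day 14 against control Srf rose by 0.21 in log2, and the kinase genes Rps6ka3, Map2k1 and Map2k2 fell by 0.36, 0.27 and 0.21. Those counts of 1 higher and 3 lower of 9 stand beside 16.6% higher and 32.1% lower over all genes. At the same 75th percentile those 3 lower calls were lost, the list's median turned from -0.04 to 0.08 and 2 genes were called higher. Single arrays also decided calls: Srf was lost without control replicate 1 or 2 or day 14 replicate 1 or 3 (adjusted p = 0.061 to 0.095), Rps6ka3 without day 14 replicate 2 or 3 (0.061 and 0.053) and Map2k2 without control replicate 1 (0.066). Against day 7, Elk4 rose by 0.27 and Srf by 0.22 while Rps6ka3 fell by 0.37 and Map2k2 by 0.23. Neither of these falls was called at the same 75th percentile. Srf was lost here when day 7 replicate 1 or 2, or day 14 replicate 1 or 3, was dropped (limma adjusted p = 0.058 to 0.097). Rps6ka3 was lost when day 7 replicate 1 or 2, or day 14 replicate 2 or 3, was dropped (0.052 to 0.071), and Map2k2 when day 7 replicate 1 was (0.051).

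In the calcineurin and NFAT list, 10 of 13 genes were tested. At day 7 limma called none, with 1 at an unadjusted p below 0.05: the NFAT gene Nfatc2 gave -0.22 in log2 (adjusted p = 0.19) and the calcineurin subunit Ppp3r1 0.12 (adjusted p = 0.32). At day 14 against control Nfatc2 fell by 0.48 and Rcan1, a calcineurin regulator, by 0.26, with none called higher, where 16.6% of all genes were called higher and 32.1% lower. The Rcan1 call was lost with both scalings and without control replicate 2 (adjusted p = 0.054), and at the same 75th percentile 4 genes of the list were higher and 1 lower. Against day 7, Nfat5 rose by 0.28 while Rcan1, Ppp3cc and Nfatc2 fell by 0.31, 0.26 and 0.26. Those 3 falls were called with neither scaling, and at the same 75th percentile 4 genes were higher. The Nfat5 call was lost when control replicate 2, any day 7 array, or day 14 replicate 1 or 3 was dropped (limma adjusted p = 0.052 to 0.14). Ppp3cc was lost when any array but day 14 replicate 3 was dropped (0.055 to 0.15), and Nfatc2 when control replicate 2, day 7 replicate 2 or 3, or day 14 replicate 2 or 3 was (0.054 to 0.13).

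Subunits of NuRD, the complex that NAB proteins recruit, were more often called lower than higher at day 14, as were all genes. All 13 listed genes were tested. At day 14, 6 were lower and 1 higher against control, and the same numbers held against day 7, with median log2 changes of -0.20 and -0.17. The histone binding gene Rbbp7 fell by 0.60 in log2 against control, the deacetylase gene Hdac1 by 0.53 and Mbd3 by 0.40, while Gatad2b rose by 0.28. Against day 7 Mbd3 fell by 0.63, Rbbp7 by 0.62 and Hdac1 by 0.49, and Gatad2b rose by 0.18, a call lost when any array but control replicate 3 was dropped (limma adjusted p = 0.053 to 0.15). Over all genes 16.6% were called higher and 32.1% lower at day 14 against control, and 15.7% and 31.9% against day 7. The 6 lower against control became 3 at the same 75th percentile. They also became 3 when control replicate 1, or day 14 replicate 2 or 3, was dropped. At day 7 limma called none, with 1 at an unadjusted p below 0.05, and Mbd3 (0.24, adjusted p = 0.15) and Chd3 (-0.23, adjusted p = 0.25) had the smallest p-values.

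The sort was checked against LKS+ identity genes. All 12 LKS+ identity genes with a probe set, Kit and Cd34 among them, lay above the 40th percentile in all 9 arrays, with a summed intensity of 14672 to 15414 in controls, 13288 to 14199 at day 7 and 12977 to 14194 at day 14. Both leukemic groups lay below every control array in that sum. It adds unscaled intensities, so bright probe sets weigh most, and it was not repeated with the arrays scaled. The 75th percentile was 115 to 119 in day 14 arrays and 127 to 130 in the others. Hoxa9 averaged 2400 in controls and 1690 at day 14, while Hlf averaged 1526 and 1585 and Meis1 605 and 642. None was called at day 7, where 1.81% of all genes were called higher and 0.901% lower. At day 14 against control 1 was higher and 3 were lower, beside 16.6% and 32.1% of all genes. Among the 3 lower was Cd48, whose mean intensity was 1253 in controls and 700.3 at day 14. The part of these identity genes in the EGR and NAB changes was not tested. The defining T cell genes Cd3d and Cd3g, the B cell gene Ms4a1, the neutrophil gene Mmp8, the erythroid genes Alas2 and Rhag and the platelet gene Gp6 were above the 40th percentile in no array. Other markers of the same lineages were above it in all 9 arrays: 4 of 9 T and NK cell genes (Cd3e, Cd4, Cd8a and Nkg7), 4 of 8 B cell genes with Cd79b among them, 4 of 8 neutrophil genes with Mpo and S100a9, 6 of 8 erythroid genes with Car1 and Gata1, 8 of 9 megakaryocyte and platelet genes and 8 of 9 monocyte and macrophage genes. Mean control intensity was 742 for Nkg7, 154 for Cd79b, 3535 for Mpo and 278 for Car1.

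Markers of other lineages were also called at day 14, where 16.6% of all genes were called higher and 32.1% lower. The sums below add unscaled intensities and follow the brightest probe sets of each list. Summed intensity of 9 megakaryocyte and platelet genes was 669 to 772 in controls, 834 to 893 at day 7 and 1694 to 1978 at day 14, with 6 of 8 tested genes called higher at day 14 against control and none lower. Pf4, a platelet chemokine gene, rose by 2.12 in log2 and Itgb3, an integrin subunit gene, by 1.68. That of 9 monocyte and macrophage genes was 1982 to 2696, 2128 to 2725 and 2759 to 3542, with 4 of 9 higher and none lower. Csf1r, the receptor gene that is also among the described targets, rose by 1.09. That of 8 neutrophil genes was 3387 to 4068, 4015 to 4843 and 4226 to 5455, with 2 of 7 higher and 2 lower. Most of this sum was Mpo, which averaged 3535, 4099 and 4427 in the 3 groups. S100a8 averaged 32.8, 38.9 and 16.9 and S100a9 34.3, 43.6 and 21.5. B cell genes (8) gave 272 to 289, 319 to 390 and 361 to 456, with 4 of 7 higher and 1 lower. Of these 7, Ebf1 passed the 40th percentile in only 3 arrays and so entered the test through its highest arrays alone. Ebf1 averaged 4.91 in controls, 10.8 at day 7 and 31.2 at day 14. Vpreb1, a surrogate light chain gene of early B cells, rose by 1.09 at day 7 and 1.60 at day 14. T and NK cell genes (9) gave 781 to 901, 928 to 949 and 619 to 725, with 2 of 4 higher and 1 lower. Most of that sum was Nkg7, which averaged 742, 819 and 527, while Cd3e averaged 19.0, 21.0 and 25.8. Erythroid genes (8) gave 828 to 1734, 1031 to 1040 and 942 to 1086, with 1 of 6 higher and none lower. The part of these markers in the EGR and NAB changes was not tested.

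The genes whose profile lay nearest to Egr3 1436329_at over the 9 arrays were found among 11983 genes by the root mean square difference of mean-centred log2 intensity. In order they were Nr4a3 at 0.43, the Notch target Hey1 at 0.51, the decoy receptor gene Il1r2 at 0.62, the granzyme gene Gzmb at 0.63 and the Notch target Hes1 at 0.64, where the SD of Egr3 itself was 1.69. All 5 were higher at day 14 than in controls by 2.60 to 3.46 in log2, less than the 4.01 of Egr3. As for Egr3, control replicate 1 was the highest control for Gzmb (controls 37.6 to 90.1), Hes1 (122 to 195) and Hey1 (28.5 to 31.9). It was not the highest for Nr4a3 (34.9 to 37.6) or Il1r2 (25.1 to 32.7). Likeness over 9 arrays of 3 groups is a description and carries no test.

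**Figure D5:**
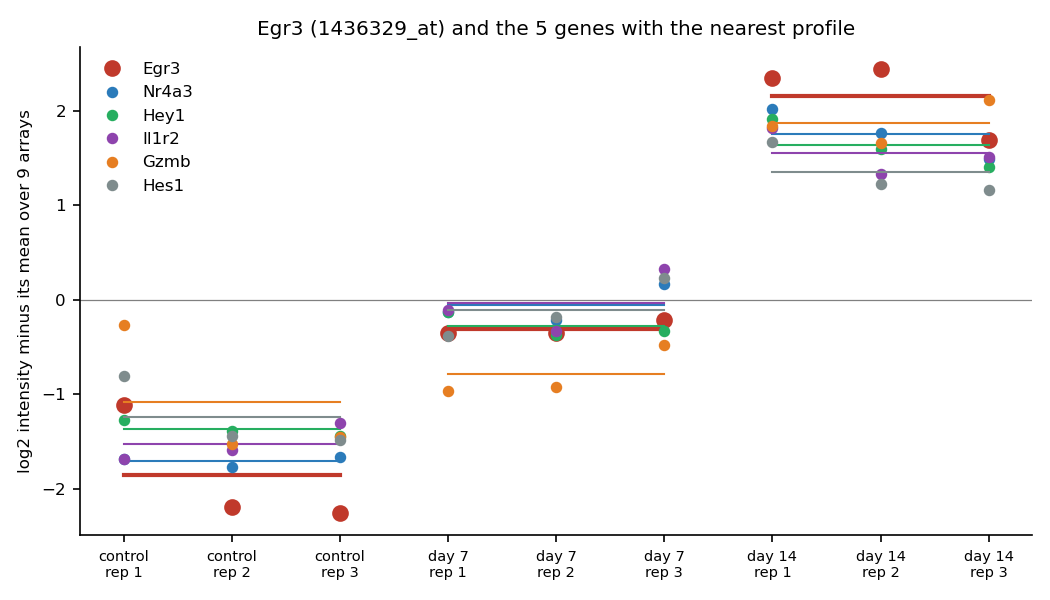
Log2 intensity minus its mean over the 9 arrays (y axis) for Egr3 1436329_at and the 5 genes of nearest profile, with 1 point per gene and array and lines for group means. Day 14 arrays lie highest for all 6 genes, and in controls the Egr3 point of replicate 1 lies above those of replicates 2 and 3.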

How the data were processed

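RNA from CD45.1+LKS+ cells was amplified in a 2-cycle protocol and hybridised to Affymetrix mouse arrays, and the authors normalized the data with Affymetrix Microarray Analysis Software, per the labels and series text. The deposited values are normalized intensities on a linear scale. In 51.6% of probe sets at least 2 arrays hold an equal value, as do 8 of the 81 member values, and how this arose is not given in the sources used here. Values under the table's 20th percentile (5.81) were raised to it and log2 was taken. A probe set was tested if above the 40th percentile of its array in 3 or more arrays. limma 3.58.1 in R 4.3.3 was fitted to all 9 arrays with 1 coefficient per group and no covariate, and the scripts were tested on simulated data. Symbols came from GEO's platform annotation: 34945 probe sets had 1 symbol, 932 several and 9160 none. Lists used 1 probe set a gene, that of highest mean log2 intensity.

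Members and gene lists were chosen with earlier results of these data known. Named are every member probe set, up to 3 called genes a direction of largest change in each list and comparison (with none called, the 2 of smallest p), and the 5 nearest profiles. Alternatives covered scaling, floor, filter, prior, array weights, replicate block and leaving out each array. Intervals are 95%.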

Additional observations from a re-analysis of the deposited data

Results flagged for a closer look

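Each of these member probe sets differed between the leukemic groups by limma's test of day 14 against day 7. Control arrays enter this test only through the shared estimate of the spread. Egr3 1436329_at was 2.46 higher in log2 at day 14 (adjusted p = 0.00016), with day 14 arrays at 441 to 743 and day 7 arrays at 107.25 to 117.7. Egr1 1417065_at was 0.38 higher (adjusted p = 0.0021), Nab2 1417930_at 0.35 higher (adjusted p = 0.022) and Nab1 1417624_at 0.24 higher (adjusted p = 0.0096) by the same limma test.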

How the results depend on the processing

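Over 540 alternative values for single probe sets and pairs, 496 stayed on their side of the threshold, 28 lost a call, 16 gained one and none reversed. The count of member probe sets called at day 7 was 2, not 1, with an offset of 32 in place of the floor, a filter at the 60th percentile, 1 probe set per gene, a trended robust prior or array weights, and 0 with no filter or with only the 2 groups compared. Requiring a change of at least 2-fold left 2 of 6 calls at day 14 and 1 of 4 between the leukemic groups. Pairs called were 5, not 3, with the offset or the stricter filter. Leaving out each array in turn gave 0 to 2, 5 to 6 and 3 to 5 member calls and 3 to 4 pair calls. Among all probe sets the day 7 count of 938 was 1429 with the offset, 32 with no filter, 423 with 1 probe set per gene, 365 with only the 2 groups, 1659 with the trended prior, 3012 with array weights, 76 at 2-fold and 137 to 1015 without 1 array. The day 14 count of 12290 was 6626 with 1 probe set per gene, 830 at 2-fold and 9929 to 11702 without 1 array. Day 14 against day 7 gave 11673, and in the same settings 6455, 813 and 9379 to 12251. One probe set per gene tests fewer features, and otherwise the cause was not tested.

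With the replicate number as a block, member calls stayed at 1, 6 and 4 and pair calls at 3, while the day 7 count over all probe sets was 458. Same-numbered arrays did not deviate together: their correlations ran from -0.13 to 0.11 over 9 pairs. Those of other arrays ran from -0.14 to 0.17 over 18. Such correlations show no strong effect shared by a replicate number, but cannot establish that the samples were unpaired.

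List counts under the scalings and without each array were added after seeing the data. Of the day 7 calls named above, those of Id3, Cdkn1a, Tnf, Zbtb16, Fosl1 and Fosl2 were each lost without at least 1 array. Low signal limits Egr2 1427682_a_at and Nab1 1438819_at, and 3 arrays a group limit precision throughout.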

Other observations

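The profiles nearest to the other members, by the same measure over 9 arrays, were as follows. Nearest to Egr2 1427683_at were Pmaip1, which encodes the BH3-only protein NOXA, at 0.16, then Siah2, Id3, Phlda1 and Hdc, up to 0.27. Pmaip1 averaged 55.9 in controls, 96.5 at day 7 and 135 at day 14, differences of 0.88 and 1.36 in log2 beside 0.89 and 1.36 for Egr2. Nearest to Egr1 were Ppm1l, Bcl10, Mob4, Slc3a2 and Auts2, from 0.08 to 0.09. Bcl10, an adaptor of antigen receptor signalling, averaged 747, 941 and 1278 in the 3 groups. Nearest to Nab1 1417624_at were Pom121, Cyth3, Arhgap15, Gna13 and Actg1, from 0.03 to 0.04, and nearest to Nab2 were Cpne6, Dchs1, Adamts5, Ncoa1 and Dhrs11, from 0.06 to 0.07. Small distances for Nab1 and Nab2 go with small spreads of their own (SD over arrays 0.11 and 0.22, against 0.65 for Egr2 and 0.28 for Egr1), so distances are not compared between members.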
